A study of Mus musculus with 4 samples.

Results

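The genes described here are Foxm1 and its partners on cell-cycle promoters: Mybl2, the MuvB core subunits Lin9, Lin37, Lin52, Lin54 and Rbbp4, and the pocket proteins Rb1, Rbl1 and Rbl2. They were taken by symbol, and all 10 were among the 20421 genes of the table. Total RNA was taken at embryonic day 15 from the brain of C57BL/6 mice. One group is labelled FOXM1f/+;Nestin-Cre and the other WT. The series' title names the human gene FOXM1, and the labels do not say how its allele was built. Nestin-Cre is used to drive Cre recombinase in neural progenitors and their progeny, rather than in cells of other origin such as vessels and microglia. In which cells the allele was recombined was not measured here. GEO lists 4 samples, 2 in each group, whereas the table holds 1 column of read counts for FOXM1f/+;Nestin-Cre and 1 for WT. Which sample or pool a column holds is not stated. Of the samples labelled WT, one is titled with nestin and the other with foxm1, so the WT column may carry either allele. All differences below are between these 2 libraries and have no replicate check.

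FOXM1 is a forkhead transcription factor of proliferating cells. It has little hold on DNA of its own at many mitotic promoters and is brought there by MuvB, a complex whose subunit LIN54 reads the cell cycle homology region (CHR) element. In resting cells MuvB joins the pocket proteins p107 and p130, encoded by Rbl1 and Rbl2, and the factors E2F4 or E2F5 with a DP partner, in the repressor complex called DREAM. In S phase MuvB leaves the pocket proteins and binds B-MYB, the product of Mybl2, and then FOXM1, which switch the same promoters on. RB, encoded by Rb1, instead holds activating E2F factors in check until cyclin-dependent kinases phosphorylate it. In the embryonic cortex the dividing cells are the radial glia and the intermediate progenitors, while neurons have left the cycle.

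The FOXM1f/+;Nestin-Cre library held 17856653 reads and the WT library 17543705. The table's normalised values are CPM, reads per 1000000 reads of the library, and a ratio is FOXM1f/+;Nestin-Cre over WT throughout. Brackets after a ratio or a CPM value give its exact 95% interval, which covers counting error only. The brain markers Emx1, Pax6, Sox2, Tubb3 and Map2 were all read in both libraries, from Pax6 at 78.2 CPM in FOXM1f/+;Nestin-Cre and 74.3 CPM in WT up to Tubb3 at 2903 CPM and 2947 CPM. Sex-linked genes set the libraries apart as well. Xist, the RNA of the silenced X chromosome, was at 9628 reads in FOXM1f/+;Nestin-Cre and 5 in WT. Of 4 Y-linked genes none had a read in FOXM1f/+;Nestin-Cre, while all were read in WT. Genotype and sex content cannot be told apart in any result below.

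All 10 genes were read more in the FOXM1f/+;Nestin-Cre library, by small margins. Their median log2 ratio was 0.17, against -0.01 over the 14557 genes that averaged 1 CPM or more, called the tested genes here. Mybl2 and Rbl1, at 1.24-fold and 1.22-fold, were past the 1.2-fold used as the call, and none of the 10 was 1.2-fold lower. Over all tested genes, 11.5% were higher and 15.7% lower by that fold. Ratios of low counts scatter more, and the 10 genes all averaged above 10 CPM. Among the 10138 genes that averaged 10 CPM or more, 6.63% were past 1.2-fold on the higher side. A ratio above 1 was common in itself, at 48.4% of all tested genes and 50.5% of those at 10 CPM or more. The interval lay wholly above 1 for 6 of the 10 genes (Foxm1, Mybl2, Lin37, Rbbp4, Rb1 and Rbl1) and spanned 1 for 4. Of all tested genes, 16.5% had an interval wholly above 1 and 19.2% one wholly below 1. At 10 CPM or more these shares were 20.2% and 21.1%.

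**Figure D1:**
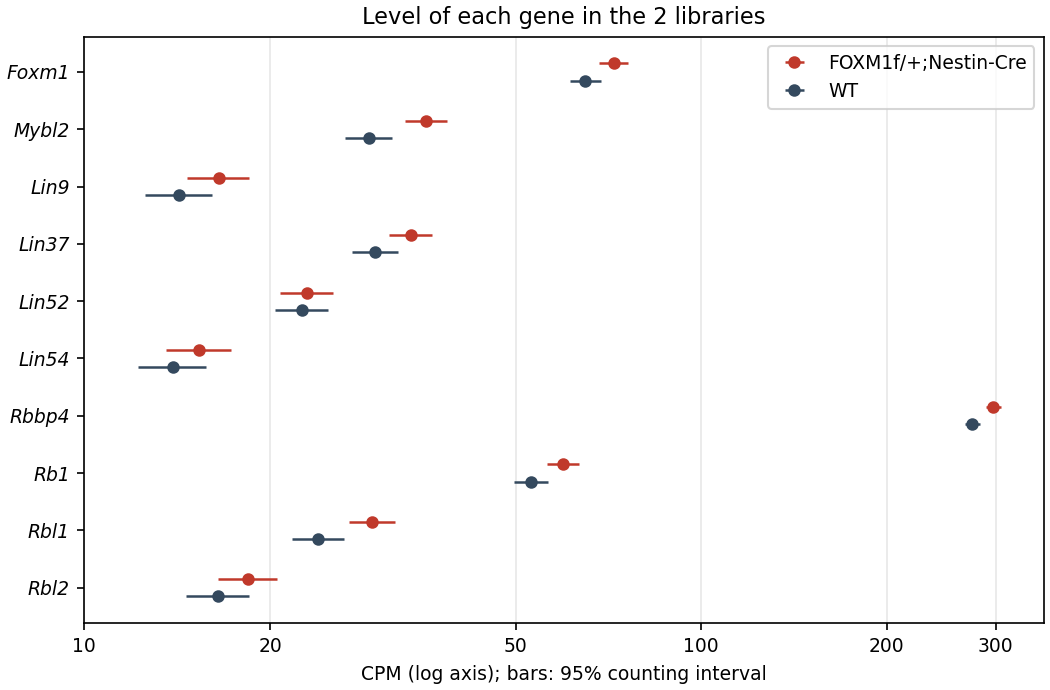
Level of each of the 10 genes in CPM on a log axis, in the FOXM1f/+;Nestin-Cre library (red, upper point of each row) and the WT library (dark, lower point), with 95% counting intervals. The red point lies to the right of the dark one in every row, by the least for Lin52, and the intervals of the pair do not meet for Mybl2, Rbl1 and Rbbp4.

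Foxm1 (ENSMUSG00000001517, chromosome 6, 128362967 to 128376146, plus strand, GRCm38) encodes the factor named by the genotype. It had 1289 reads in FOXM1f/+;Nestin-Cre and 1139 in WT, or 72.2 CPM (68.3 to 76.2) against 64.9 CPM (61.2 to 68.8). The intervals of the 2 levels overlapped slightly. The ratio was 1.11 (1.03 to 1.205), short of the 1.2-fold call. Of all tested genes, 78.6% had a lower ratio. The counts are those of the mouse gene, and the labels do not say whether the FOXM1f allele holds a further coding sequence whose reads could be counted there. Foxm1 shares 144 bases, 2.5% of its exon bases, with exons of Tex52 on the same strand. Tex52 had 18 reads in FOXM1f/+;Nestin-Cre and 17 in WT.

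Mybl2 (chromosome 2, 163054687 to 163084688, plus strand) had the highest ratio of the 10. It had 639 reads in FOXM1f/+;Nestin-Cre and 507 in WT, or 35.8 CPM (33.1 to 38.7) against 28.9 CPM (26.4 to 31.5). The ratio was 1.24 (1.1003 to 1.39), above that of 91.1% of tested genes. Mybl2 is itself a classical E2F target, silenced in resting cells and read from late G1. The other Myb genes had few reads. Mybl1, a relative best known from male germ cells, had 125 reads in FOXM1f/+;Nestin-Cre and 82 in WT, a ratio of 1.498 (1.12 to 2.004). Myb, the factor of blood progenitors, had 100 and 89 reads, a ratio of 1.104 (0.821 to 1.49). Per kilobase of exon, Mybl2 made up 80.1% of the reads of the 3 Myb genes in FOXM1f/+;Nestin-Cre and 81.3% in WT.

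All 3 pocket protein genes had ratios above 1, and Rbl1 stood first. Rbl1 (chromosome 2, 157145893 to 157204534, minus strand), which encodes p107 and is an E2F target like Mybl2, had 523 reads in FOXM1f/+;Nestin-Cre and 420 in WT. That is 29.3 CPM (26.8 to 31.9) against 23.9 CPM (21.7 to 26.3), a ratio of 1.22 (1.07 to 1.39). Its intervals of the level did not meet between the libraries, and 90.3% of tested genes had a lower ratio. Rb1 (chromosome 14, 73183673 to 73325822, minus strand), the retinoblastoma gene, had 1066 and 930 reads in FOXM1f/+;Nestin-Cre and WT, or 59.7 against 53.0 CPM, a ratio of 1.13 (1.03 to 1.23). Rbl2 (chromosome 8, 91070057 to 91123844, plus strand), which encodes p130, the pocket protein that prevails in resting cells, had the fewest reads of the family. It had 329 reads in FOXM1f/+;Nestin-Cre and 289 in WT, a ratio of 1.12 (0.952 to 1.31) that counting error does not set apart from 1.

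Antisense neighbours limit the values of Rb1 and Rbl2, since the strand setting of the counting is not given. The exons of Rb1 share 488 bases with Rcbtb2 and 408 with Lpar6, both on the opposite strand, 8.11% and 6.78% of its exon bases. Rcbtb2 had 1064 reads in FOXM1f/+;Nestin-Cre and 1011 in WT. Rbl2 shares 693 bases, 9.17% of its exons, with Aktip on the opposite strand, which had 1163 reads in FOXM1f/+;Nestin-Cre and 1137 in WT. It also shares 892 bases with Gm45464, which had 4 and 5 reads. Lpar6 had 120 reads in FOXM1f/+;Nestin-Cre and 110 in WT. The log2 ratios of Rcbtb2, Lpar6 and Aktip were 0.05, 0.10 and 0.01, beside 0.17 for Rb1 and 0.16 for Rbl2. The part of these neighbours in the counts of Rb1 and Rbl2 was not tested.

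**Figure D2:**
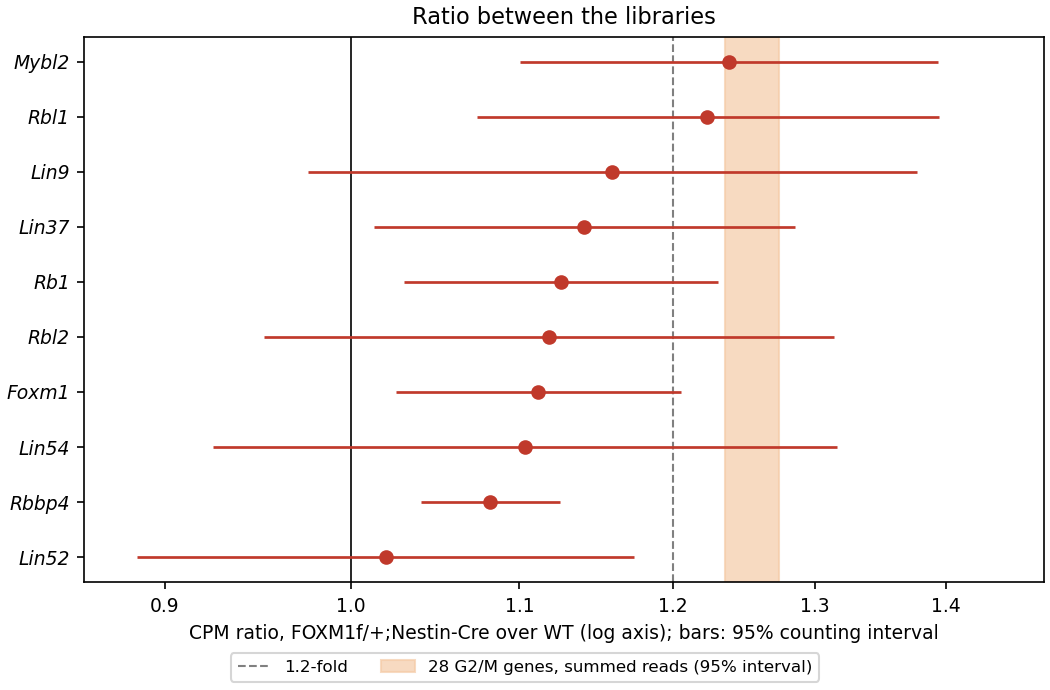
CPM ratio of FOXM1f/+;Nestin-Cre over WT for each gene on a log axis, ordered from highest to lowest, with 95% counting intervals. The solid line marks 1, the dashed line 1.2 and the band the interval of the summed reads of 28 G2/M genes (1.24 to 1.27). Mybl2 and Rbl1 lie past 1.2, and the intervals of Foxm1, Rb1, Rbbp4 and Lin52 end left of the band.

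The MuvB core spanned a wide range of levels and a narrow range of ratios. Lin9 (chromosome 1, 180641150 to 180690694, plus strand), the subunit needed for activation with B-MYB, had 295 reads in FOXM1f/+;Nestin-Cre and 250 in WT, a ratio of 1.16 (0.976 to 1.38). Lin54 (chromosome 5, 100441918 to 100500639, minus strand), the DNA-binding subunit, had 274 and 244 reads, or 15.3 CPM in FOXM1f/+;Nestin-Cre and 13.9 CPM in WT. Its ratio was 1.103 (0.925 to 1.32). For both genes the interval of the ratio spanned 1. Lin37 (chromosome 7, 30555441 to 30559838, minus strand), needed for repression by DREAM, had 604 reads in FOXM1f/+;Nestin-Cre and 520 in WT, a ratio of 1.14 (1.01 to 1.29). Its exons meet those of Hspb6 on the opposite strand over 3 bases only.

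Lin52 (chromosome 12, 84451422 to 84546145, plus strand), which DYRK1A phosphorylates to join MuvB to p107 or p130, had the lowest ratio of the 10. It had 410 reads in FOXM1f/+;Nestin-Cre and 395 in WT, or 23.0 CPM (20.8 to 25.3) against 22.5 CPM (20.3 to 24.8). The ratio was 1.02 (0.886 to 1.17), near the middle of all genes, with 57.5% of them lower. Dyrk1a itself had 1673 reads in FOXM1f/+;Nestin-Cre and 1656 in WT, a ratio of 0.993 (0.927 to 1.06). The interval of Lin52 holds 1 and also 1.11, the ratio of Foxm1.

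Rbbp4 (chromosome 4, 129307100 to 129335370, minus strand) had the most reads of the 10 genes and also the highest CPM per kilobase. Its product is a histone-binding WD40 protein that serves MuvB and also chromatin assembly factor CAF-1, the NuRD and Sin3 deacetylase complexes and Polycomb complex PRC2. It had 5315 reads in FOXM1f/+;Nestin-Cre and 4826 in WT, or 298 CPM (290 to 306) against 275 CPM (267 to 283). The ratio was 1.08 (1.04 to 1.13), the second lowest of the 10 and, at this depth, the most precise. Its paralog Rbbp7, which shares most of these complexes, had 2482 reads in FOXM1f/+;Nestin-Cre and 2233 in WT, a ratio of 1.09 (1.03 to 1.16). Rbbp7 lies on the X chromosome, and the libraries differ in sex content. The part of sex in its ratio and in the shares of the pair was not tested. Of the reads of the pair, Rbbp4 held 68.2% (67.1 to 69.2) in FOXM1f/+;Nestin-Cre and 68.4% (67.3 to 69.5) in WT. Per kilobase of exon the order was the reverse, with Rbbp4 at 41.6% in FOXM1f/+;Nestin-Cre and 41.8% in WT. By the longest transcript its share was 50.8% and 51.0%. The opposite-strand genes Sync and Gm26722 lie across 782 and 796 exon bases of Rbbp4 and had at most 9 reads in either library.

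RefSeq promoter sequences on GRCm38.p6 matched 7 of the 10 genes, all but Foxm1, Lin9 and Rb1. Those of Mybl2 and Rbl1 are shown as the genes with the highest ratios, that of Lin52 as the gene with the lowest, and that of Rbbp4 as the gene with the most reads. Each runs 5′ to 3′ on the strand of the gene, from 250 bases before to 50 bases after the RefSeq start. That start is the same as the table's for Rbl1 and Rbbp4, lies upstream of it for Mybl2 and downstream of it for Lin52. Capitals mark matches to an E2F core, searched on both strands as GCGCGAA or GCGGGAA or GCGCCAA or GCGGCAA, or to TTGGCGGG, the form of the E2F site known from the B-MYB promoter. TTGGCGGG was added to the search after the Mybl2 sequence had been seen.
Mybl2 (chr2:163054385-163054684, plus strand): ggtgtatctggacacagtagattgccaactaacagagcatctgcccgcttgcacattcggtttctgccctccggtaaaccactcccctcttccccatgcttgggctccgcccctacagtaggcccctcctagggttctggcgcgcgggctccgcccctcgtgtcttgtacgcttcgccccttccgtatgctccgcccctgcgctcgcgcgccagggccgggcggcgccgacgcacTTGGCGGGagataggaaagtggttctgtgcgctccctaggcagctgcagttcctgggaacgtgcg
Rbl1 (chr2:157204485-157204784, minus strand): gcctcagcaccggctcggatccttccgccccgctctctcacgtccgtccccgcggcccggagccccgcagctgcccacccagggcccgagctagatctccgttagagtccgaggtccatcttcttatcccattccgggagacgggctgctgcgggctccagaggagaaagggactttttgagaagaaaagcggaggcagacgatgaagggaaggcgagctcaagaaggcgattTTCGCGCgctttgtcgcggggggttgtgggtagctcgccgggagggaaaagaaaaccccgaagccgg
Lin52 (chr12:84451258-84451557, plus strand): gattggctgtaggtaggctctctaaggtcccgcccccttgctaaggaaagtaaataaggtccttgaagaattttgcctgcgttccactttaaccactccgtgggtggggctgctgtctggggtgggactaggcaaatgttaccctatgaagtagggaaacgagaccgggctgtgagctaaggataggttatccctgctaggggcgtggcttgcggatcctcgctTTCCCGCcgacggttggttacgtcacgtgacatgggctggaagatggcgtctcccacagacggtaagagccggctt
Rbbp4 (chr4:129335321-129335620, minus strand): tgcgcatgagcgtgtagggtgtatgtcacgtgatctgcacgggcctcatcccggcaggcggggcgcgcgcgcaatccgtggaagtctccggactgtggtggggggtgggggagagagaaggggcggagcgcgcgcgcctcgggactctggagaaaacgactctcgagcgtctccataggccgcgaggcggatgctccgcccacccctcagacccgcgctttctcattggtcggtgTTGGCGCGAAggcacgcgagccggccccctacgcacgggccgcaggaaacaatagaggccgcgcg

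An E2F core was found in Rbl1, Lin52 and Rbbp4, whose ratios were 1.22, 1.02 and 1.08. The matches begin 17, 26 and 15 bases before the RefSeq starts, which for Lin52 is inside the gene as the table bounds it, and in Rbbp4 a GCGCCAA and a GCGCGAA match overlap. Mybl2 held none of the 4 cores and a TTGGCGGG match that begins 15 bases before its RefSeq start. The second of the RefSeq promoters of Lin54 also held a TTGGCGGG, which begins 154 bases before its start. Of 32851 promoters of the same length, 9.57% held an E2F core and 0.974% a TTGGCGGG. Among the 13584 promoters of tested genes the shares were 16.4% and 1.63%. The CHR letters TTTGAA or TTCGAA, the kind of element LIN54 binds, were in Lin37, Lin54 and Rbl2, in 19.2% of all promoters and in 13.5% of those of tested genes. No binding was measured here, and these matches describe letters only.

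Levels of different genes can be set beside each other only per length, here as CPM per kilobase of annotated exon. Rbbp4 led with 34.0 in FOXM1f/+;Nestin-Cre and 31.5 in WT, followed by Lin37 with 24.4 and 21.3. Foxm1 came next with 12.5 in FOXM1f/+;Nestin-Cre and 11.3 in WT, ahead of Rb1 with 9.92 and 8.81. Down to Mybl2, the next in order, the counting intervals of neighbours did not overlap in either library. Those of Mybl2 and Lin52 did. Mybl2 had 7.72 in FOXM1f/+;Nestin-Cre and 6.24 in WT, while Lin52 had 7.38 and 7.24, so their order was not the same in the libraries. Rbl1 followed with 4.89 in FOXM1f/+;Nestin-Cre and 3.99 in WT. At the low end Lin54, Rbl2 and Lin9 lay between 2.28 and 2.64 in FOXM1f/+;Nestin-Cre and between 1.97 and 2.39 in WT, with overlapping intervals from neighbour to neighbour. With the longest transcript as the length, a choice added after seeing the data, Lin9 moved above Rbl2 and Lin54, and Lin52 above Mybl2 in both libraries.

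**Figure D3:**
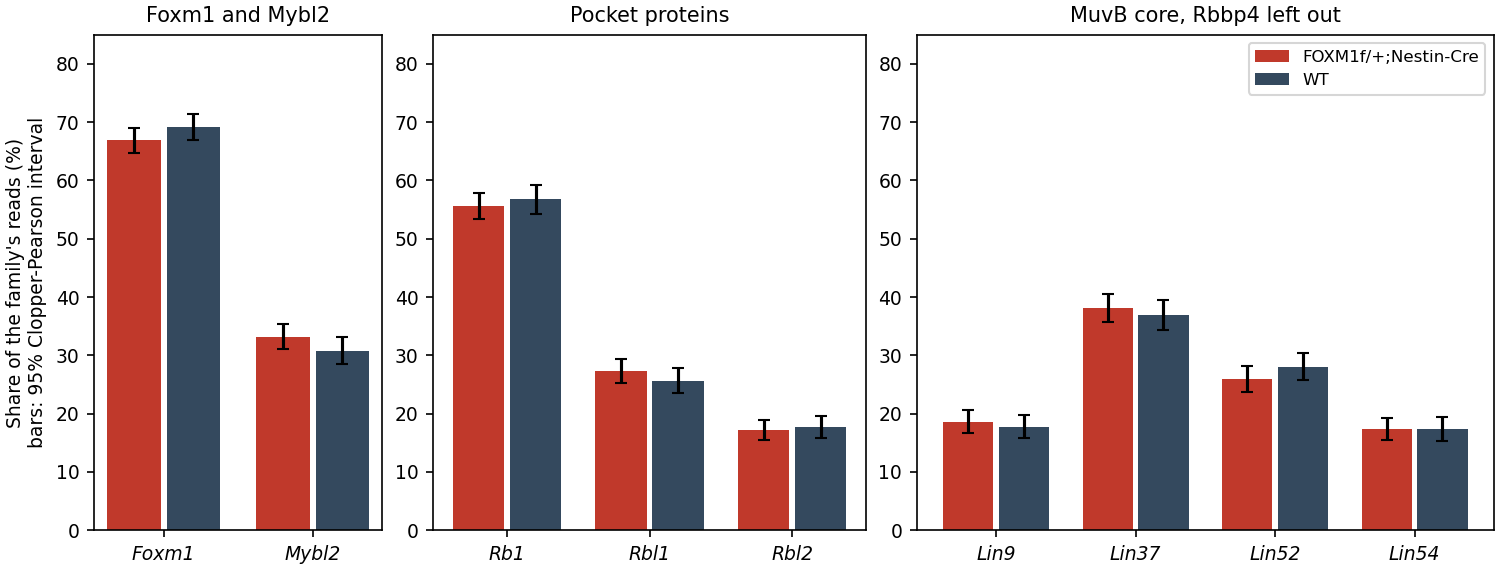
Share of the reads of each family taken by each gene, in percent, in FOXM1f/+;Nestin-Cre (red, left bar) and WT (dark, right bar), with 95% Clopper-Pearson intervals. Within each of the 3 families the bars of a gene stand close together and their intervals overlap.

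Shares within a family do not depend on how the libraries are scaled. Foxm1 held 66.9% (64.7 to 69.0) of the reads of Foxm1 and Mybl2 together in FOXM1f/+;Nestin-Cre and 69.2% (66.9 to 71.4) in WT. Among the pocket proteins, Rbl1 held 27.3% (25.3 to 29.3) in FOXM1f/+;Nestin-Cre and 25.6% (23.5 to 27.8) in WT. The share of Rb1 was 55.6% (53.3 to 57.8) in FOXM1f/+;Nestin-Cre and 56.7% (54.3 to 59.2) in WT, and that of Rbl2 17.2% (15.5 to 18.9) and 17.6% (15.8 to 19.6). With Rbbp4 left out, Lin52 held 25.9% (23.8 to 28.1) of the MuvB core reads in FOXM1f/+;Nestin-Cre and 28.03% (25.7 to 30.5) in WT. Rbbp4 held 77.1% (76.0 to 78.0) of the reads of the whole core in FOXM1f/+;Nestin-Cre and 77.4% (76.3 to 78.4) in WT. The intervals overlapped for every gene of these families. Shifts of these sizes were not detectable at this depth.

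The genes that Foxm1 and MuvB are known to switch on were read more as well, and by more than Foxm1 itself. This list and the other gene lists below were chosen with earlier results of these data known, so their ratios are descriptive. The list of 28 G2/M genes had a median log2 ratio of 0.34, and 20 of them were at least 1.2-fold higher and none lower. Over all tested genes 11.5% were higher and 15.7% lower by that fold. Among genes averaging 10 CPM or more, 6.63% were higher. Top2a, which untangles sister DNA strands, and Mki67, the antigen of cycling cells, had the highest CPM. Mki67 had 187 CPM in FOXM1f/+;Nestin-Cre and 156 CPM in WT, a ratio of 1.197 (1.14 to 1.26), while Top2a had a ratio of 1.29 (1.23 to 1.34). Ttk, a spindle checkpoint kinase, had the highest ratio of the list at 1.47 (1.26 to 1.72), with 416 reads in FOXM1f/+;Nestin-Cre and 278 in WT. Summed over the list, the reads had a ratio of 1.25 (1.24 to 1.27).

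Foxm1 had a ratio above 1 but a smaller one than that sum, 1.11 against 1.25. The comparison with the sum was chosen after values were seen. By construction, any gene with a ratio under that of the sum falls below 1 in it. Foxm1 had 33.5 reads per 1000 reads of the G2/M list in FOXM1f/+;Nestin-Cre and 37.8 in WT, a relative ratio of 0.886 (0.818 to 0.961). Mybl2 and Rbl1 kept close to the list, at 0.987 (0.877 to 1.11) and 0.975 (0.856 to 1.11). Lin52 was lowest at 0.813 (0.706 to 0.936), and Rbbp4 stood at 0.862 (0.829 to 0.897). Relative to the G2/M list all 10 genes were below 1. At least 91.1% of tested genes would also be below 1, as their ratios were lower than that of Mybl2. Relative to the G1/S list described next, 8 of the 10 were below 1. Most tested genes had a lower ratio than Lin9, which was among these 8. Being below 1 in these comparisons therefore does not set the 10 genes apart. How many of all tested genes would have an interval wholly below 1 in such a comparison was not computed. These 20 relative ratios were not adjusted for their number, and their intervals cover counting error only.

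**Figure D4:**
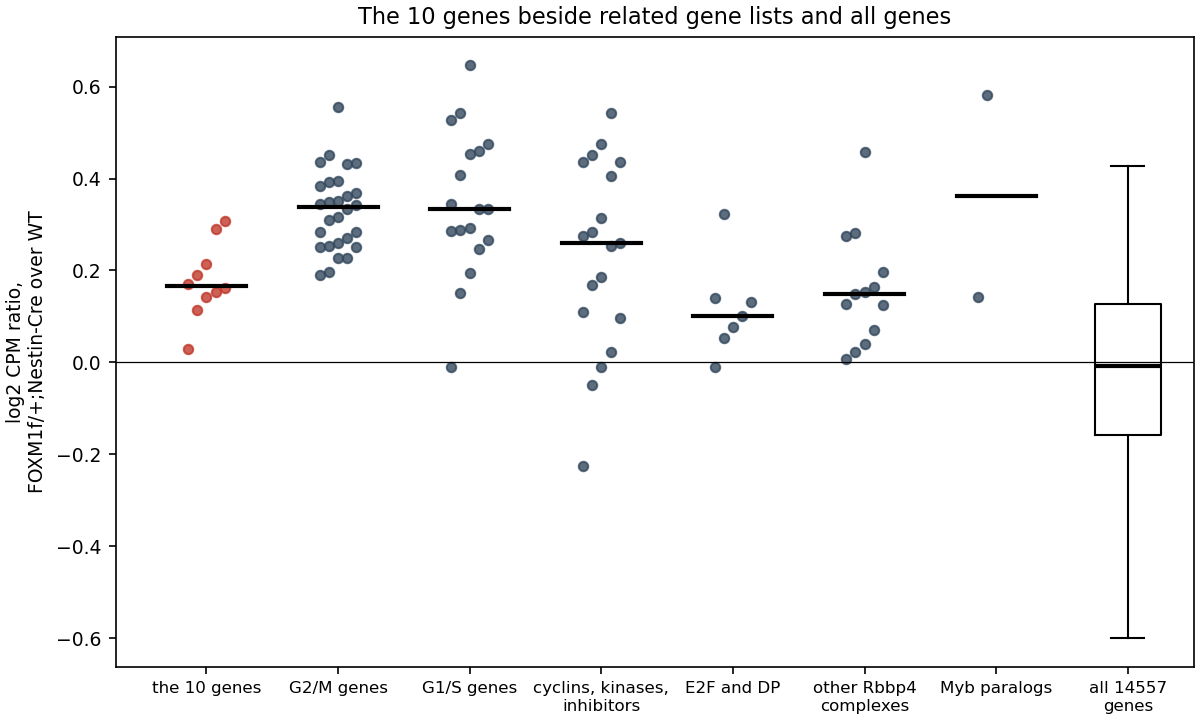
Log2 CPM ratio of FOXM1f/+;Nestin-Cre over WT for each gene (points) of the 10 genes and of 6 related lists, with the median of each as a black bar, beside all 14557 tested genes as a box (quartiles) with whiskers at the 5th and 95th percentiles (-0.60 and 0.43). The median of the 10 genes, 0.17, lies between that of all genes, -0.01, and those of the G2/M and G1/S lists, 0.34 and 0.33.

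The G1/S list holds 18 targets of E2F and DREAM, of which 14 were at least 1.2-fold higher and none lower. Its median log2 ratio was 0.33. The shares over all tested genes were 11.5% higher and 15.7% lower. Pcna, the sliding clamp of replication forks, had 267 CPM in FOXM1f/+;Nestin-Cre and 218 CPM in WT. Mcm7, a subunit of the replicative helicase, had 247 and 222 CPM, a ratio of 1.11 (1.06 to 1.16). The origin licensing factor Cdc6 had the highest ratio of the list at 1.57 (1.32 to 1.86), with 360 reads in FOXM1f/+;Nestin-Cre and 226 in WT. E2f1 was the gene of the list with the lowest ratio, 0.993 (0.897 to 1.099).

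The E2F and DP genes, which pair with the pocket proteins, lay nearer to all genes. Of the 7, E2f2 alone was past 1.2-fold, at 429 reads in FOXM1f/+;Nestin-Cre and 337 in WT, a ratio of 1.25 (1.08 to 1.447). Past that fold on the higher side were 11.5% of all tested genes and 6.63% of those averaging 10 CPM or more. A single gene past the fold does not set the list apart. The DREAM subunit E2f4 had 76.2 CPM in FOXM1f/+;Nestin-Cre and 71.0 CPM in WT, a ratio of 1.07 (0.993 to 1.16). Tfdp1, the main DP partner, had a ratio of 1.102 (1.04 to 1.17). The median log2 ratio of the 7 was 0.10.

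Of 19 cyclins, kinases, inhibitors and degradation factors that act on these proteins, 9 were at least 1.2-fold higher and none 1.2-fold lower. By that fold, 11.5% of all tested genes were higher and 15.7% lower. The median log2 ratio of the 19 was 0.26. The list shares Ccna2, Ccnb1, Cdk1 and Plk1 with the G2/M list and Ccne1 and Ccne2 with the G1/S list. Ccnd2, the D cyclin of cortical progenitors that helps phosphorylate pocket proteins, had 416 CPM in FOXM1f/+;Nestin-Cre and 308 CPM in WT, a ratio of 1.35 (1.31 to 1.401). Its kinase partner Cdk4 had 847 and 753 CPM, a ratio of 1.12 (1.098 to 1.15). Ccne1, the cyclin that activates Cdk2 at the start of S phase, had 280 reads in FOXM1f/+;Nestin-Cre and 189 in WT, a ratio of 1.46 (1.21 to 1.76). Cdkn1a, the p21 inhibitor of these kinases, was singled out after its values were seen as the gene of the list whose interval lay wholly below 1. It had 371 reads in FOXM1f/+;Nestin-Cre and 426 in WT, a ratio of 0.856 (0.742 to 0.986). The other inhibitors of the list did not go this way. Cdkn1c had a ratio of 1.33 (1.21 to 1.45), Cdkn2c 1.21 (1.08 to 1.36) and Cdkn1b 1.02 (0.967 to 1.07).

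Other complexes that hold Rbbp4 gave 13 genes, of which 3 (Chaf1b, Chaf1a and Hdac1) were at least 1.2-fold higher and none lower. All tested genes had 11.5% higher and 15.7% lower by that fold. The median log2 ratio of the 13 was 0.15. Chaf1b, a CAF-1 subunit that works behind the replication fork, had the highest ratio at 1.37 (1.24 to 1.52), with 875 reads in FOXM1f/+;Nestin-Cre and 626 in WT. The NuRD helicase Chd4 had 497 CPM in FOXM1f/+;Nestin-Cre and 448 CPM in WT, a ratio of 1.11 (1.08 to 1.14). The deacetylase Hdac2 was level, at 400.5 and 398 CPM, a ratio of 1.01 (0.973 to 1.04). Rbbp4, at 1.08, lay within the range of these partners.

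**Figure D5:**
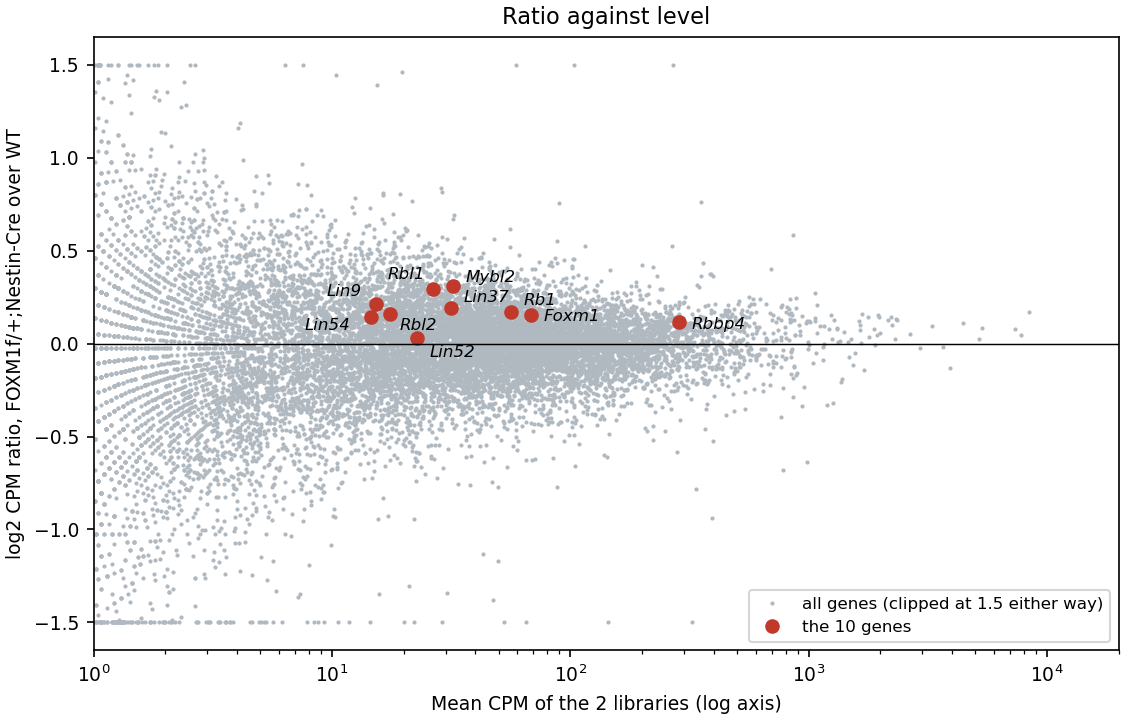
Log2 CPM ratio of FOXM1f/+;Nestin-Cre over WT against the mean CPM of both libraries (log axis), for all tested genes with reads in both libraries (grey, values beyond 1.5 drawn at 1.5) and for the 10 genes (red, named). The red points lie above 0 and within the grey cloud at their level, and the cloud is wider at low CPM.

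Markers of cell types moved between the libraries alongside these genes. The 6 markers of apical radial glia, which divide at the ventricle, summed to 2095 CPM in FOXM1f/+;Nestin-Cre and 1696 CPM in WT. That is a ratio of 1.24 (1.22 to 1.25). All 6 had ratios above 1, from 1.05 for Pax6 to 1.49 for Hes5, and 3 were at least 1.2-fold higher. Over all tested genes 48.4% had a ratio above 1, 11.5% were 1.2-fold higher and 15.7% 1.2-fold lower. The 3 markers of basal progenitors summed to 507 CPM in FOXM1f/+;Nestin-Cre and 415 CPM in WT, a ratio of 1.22 (1.18 to 1.26). The 6 neuronal markers summed to 5370 CPM in FOXM1f/+;Nestin-Cre and 5685 CPM in WT, a ratio of 0.944 (0.936 to 0.953), with 1 above 1. More dividing cells and more RNA of these genes per cell cannot be told apart in bulk tissue. The 5 choroid plexus markers summed to 22.9 CPM in FOXM1f/+;Nestin-Cre and 687 CPM in WT, with Ttr at 9.91 and 641 CPM and Kl at 1 read and 3 reads. Of the 5, 4 were at least 1.2-fold lower, while Otx2 had 211 reads in FOXM1f/+;Nestin-Cre and 223 in WT, a ratio of 0.93. The 4 erythroid markers summed to 217 CPM in FOXM1f/+;Nestin-Cre and 53.5 CPM in WT. Of these, 3 had ratios above 1, led by Hbb-y at 179 CPM in FOXM1f/+;Nestin-Cre and 28.4 CPM in WT, while Alas2 had 14.4 and 15.7 CPM. Microglial markers summed to 18.9 and 28.1 CPM, endothelial markers to 108 and 116 CPM, and markers of meninges and pericytes to 27.9 and 41.3 CPM in FOXM1f/+;Nestin-Cre and WT. None of these cell type markers was at 0 in either library. The part of these shifts in the ratios of the 10 genes was not tested.

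The genes around each of the 10 had median ratios near 1. Tested genes that start within 500 kb of them numbered 6 to 38 per gene, with median log2 ratios between -0.03 and 0.03. For Foxm1 the median of 12 neighbours was -0.03. Mybl2 and Rbl1 both lie on chromosome 2, where the median log2 ratio of 1148 tested genes was -0.01.

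The authors' deposited table marked 0 of the 10 genes as significant, against 9.46% of all its genes, and the smallest fold among its marked genes was 1.5. In the authors' deposited table the adjusted p-value was under 0.05 for 5 of the 10 (Foxm1, Mybl2, Rbbp4, Rb1 and Rbl1) and for 22.9% of all genes. These p-values compare 1 column with 1 column and hold no spread between animals. Both shares are over all 20421 genes, including those that averaged under 1 CPM, whereas the 10 genes all averaged above 10 CPM. For Lin52 the authors' deposited table gives a p-value of 0.781 and a smaller adjusted p-value, 0.559, as it does for 7645 of its 20421 genes, so its adjusted values are on a scale that can fall below the p-value.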

How the data were processed

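RNA from embryonic day 15 mouse brain was sequenced, and the deposited table gives 1 column of raw counts and 1 of normalised values per genotype. Columns were matched to a genotype by their names and to no sample. The submitters' processing notes name TopHat2 2.0.12, Bowtie2 2.2.3, HTSeq 0.6.0 and the build mm9. Strand and multi-mapping settings are not given there. The coordinates of all 10 genes nevertheless equal those of GENCODE M21 on GRCm38. The deposited normalised values are CPM, 1 constant per column times the count, per the file headers and values. The authors' ratio and log2 columns are the normalised FOXM1f/+;Nestin-Cre value over that of WT, and the authors' p-values come from a test not named in the sources used here.

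With 1 library per genotype no test of genotypes was possible. Ratios of 2 Poisson rates were given exact 95% intervals by conditioning on their sum. Reads carry no molecular identifiers, so intervals cover counting error only. Genes averaging 1 CPM or more were tested, and 1.2-fold was the call. Alternatives were TMM, RLE and upper-quartile scaling (edgeR 4.0.16 in R 4.3.3), other folds and other CPM minimums. A further scaling used totals without mitochondrial, globin and Y-linked genes and Xist, with other X-linked genes kept. The ratio interval and the 1.2-fold call were tested on simulated Poisson counts, which hold no spread between animals. From each gene list, the genes named are the 2 of highest mean CPM and the 1 of largest log2 ratio, and some others where a result turned on them. Dyrk1a, E2f1, Rbbp7, Cdkn1a, the other inhibitors of its list and the comparison with summed lists were chosen after values were seen. Members and lists were chosen with earlier results of these data known. Python 3.11.15, NumPy 2.4.6, pandas 2.3.3, SciPy 1.17.1 and Matplotlib 3.10.9 were used. One marker of the brain check is not reported here.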

Additional observations from a re-analysis of the deposited data

How the results depend on the processing

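All 10 genes kept a log2 ratio above 0 under the 4 other scalings, the lowest being that of Lin52 at 0.03, and Mybl2 and Rbl1 stayed the only ones past 1.2-fold under each. The median of the 10 lay between 0.16 and 0.19. The median over all tested genes is close to 0 and changed sign, from -0.01 to 0.0074 with TMM scaling, 0.017 with RLE scaling and 0.0019 over genes averaging 10 CPM or more. Counts followed the fold. At 1.1-fold 8 of the 10 genes were higher, at 1.5-fold and 2-fold 0, and by the counting interval 6. Over all genes, 3413 were higher and 4054 lower at 1.1-fold, 369 and 762 at 1.5-fold, and 76 and 266 at 2-fold. The lists moved likewise. At 1.5-fold 1 of the 18 G1/S genes and none of the other lists' genes were higher, against 14, and 20 of the 28 G2/M genes, at 1.2-fold, and none at 2-fold. In the list of other Rbbp4 complexes 7 of 13 were higher at 1.1-fold and 9 by the counting interval, against 3, and in the E2F and DP list 2 by either, against 1. Of the Myb paralogs both were higher at 1.1-fold, against Mybl1 alone at 1.2-fold. With no CPM minimum 3721 were higher and 4892 lower at 1.2-fold, and among genes averaging 10 CPM or more 672 and 796. Per kilobase of exon, the share of Rbl2 among pocket proteins was 14.1% in FOXM1f/+;Nestin-Cre and 14.5% in WT. That of Foxm1 in its pair was 61.9% and 64.4%, or 61.3% and 63.8% by the longest transcript. That of Rbbp4 in the MuvB core was 48.1% in FOXM1f/+;Nestin-Cre and 48.8% in WT, or 58.9% and 59.6% by the longest transcript. These changes follow from the gene lengths. No replicate could be left out. No paired analysis was possible because the table has 1 column per genotype, with no replicate number. Lin9, Lin54 and Rbl2 have the fewest reads, and differences under about 1.2-fold are within their counting error.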
